A study of Homo sapiens with 2 samples.

Results

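The cytosolic ribosomal protein (RP) genes were taken as the protein-coding genes of GENCODE whose symbol is RPL or RPS followed by a number, with *RPLP0*, *RPLP1*, *RPLP2* and *RPSA*, and without the RPS6K kinases and *RPS19BP1*. This rule gave 90 of 20176 protein-coding genes, of which 77 encode the canonical proteins of the ribosome, 10 are paralogs such as *RPS27L* and *RPL22L1*, and 3 are readthrough records that join an RP gene to its neighbour. FLAG-SMARCA4 ChIP-seq was compared at these genes between 1 library of the parental line TOV21G, from an ovarian clear cell carcinoma with mutated *ARID1A*, and 1 library of an EZH2 inhibitor-resistant (EIR) clone, numbered 3, which had been selected from TOV21G in GSK126 raised from 5 to 20 μM. In both, SMARCA4 (also called BRG1), an ATPase of the SWI/SNF chromatin remodeler, carried a FLAG tag at its endogenous locus. The authors deposited 2 lists of regions, 10792 in which the parental library was higher and 2104 in which the EIR library was higher. The EIR cells are a single clone and each condition has a single library, so no difference below has a replicate check, and every *P* value or interval compares 2 libraries and covers counting error only.

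Each cell makes its ribosomes from roughly equal amounts of every RP, and the promoters of the RP genes are among the most active of a growing cell. They are mostly short, CpG-rich promoters whose transcripts begin with a C and a run of pyrimidines, the terminal oligopyrimidine (TOP) motif, through which mTOR signaling controls their translation. Many introns of RP genes also hold small nucleolar RNAs (snoRNAs), which guide the modification of ribosomal RNA.

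The starts of RP genes to which the results refer are printed from 40 bases upstream of the transcription starting site (TSS) of the representative, or Ensembl canonical, transcript to 20 bases into it. They were read from the GRCh37 reference, 5′ to 3′ on the strand of the gene, and the capitals mark the run of pyrimidines that begins at the TSS. The first 2, *RPL3* and *RPS27L*, are promoters whose TSS lay inside a region, and the run there was short or absent. The next 5 are RP genes with a region nearby that did not reach this TSS. The last 3, *RPS6*, *RPLP0* and *RPL11*, had no region within 1 kb and are shown for comparison.
RPL3, chr22:39715609-39715668, minus strand: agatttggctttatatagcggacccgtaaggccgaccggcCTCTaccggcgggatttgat
RPS27L, chr15:63449657-63449716, minus strand: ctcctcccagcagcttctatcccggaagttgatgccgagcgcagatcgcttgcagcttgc
RPL13, chr16:89627050-89627109, plus strand: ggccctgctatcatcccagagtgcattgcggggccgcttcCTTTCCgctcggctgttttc
RPL37, chr5:40835305-40835364, minus strand: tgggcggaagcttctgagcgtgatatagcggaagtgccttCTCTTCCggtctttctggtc
RPL35, chr9:127624217-127624276, minus strand: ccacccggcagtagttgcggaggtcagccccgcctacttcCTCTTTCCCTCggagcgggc
RPS24, chr10:79793581-79793640, plus strand: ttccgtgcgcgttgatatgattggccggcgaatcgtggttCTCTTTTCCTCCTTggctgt
RPSA, chr3:39448171-39448230, plus strand: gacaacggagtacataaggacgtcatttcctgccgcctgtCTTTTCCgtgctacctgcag
RPS6, chr9:19380215-19380274, minus strand: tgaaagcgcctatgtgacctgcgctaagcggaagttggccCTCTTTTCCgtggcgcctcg
RPLP0, chr12:120638895-120638954, minus strand: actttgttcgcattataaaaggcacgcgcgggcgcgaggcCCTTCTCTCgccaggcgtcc
RPL11, chr1:24018256-24018315, plus strand: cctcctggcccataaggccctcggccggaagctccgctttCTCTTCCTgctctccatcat

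A region from one list or the other lay no more than 1 kb from a TSS at 13 of the 90 RP genes, or 14.4% (95% Wilson interval 8.64% to 23.2%), against 24.6% of all protein-coding genes. A parental-higher region was found at 12 RP genes, where the share among coding genes was 23.2%, and an EIR-higher region at 1, *RPL3*, where the share was 1.96%. No RP gene had both. The number depended on the scaling of the libraries: with the EIR library set 1.5 times higher, the parental-higher region of 1 RP gene, *RPL4*, still passed. Only parental-higher regions were tested again at this scaling, by a Poisson test, and every EIR-higher region was kept untested. With *RPL3*, kept in this way, a region in either direction was left at 2.22% of RP genes, against 10% of coding genes. The other 77 RP genes had no region this near. The lists hold only regions that differed between the libraries, so an RP gene without one may have bound SMARCA4 in both or in neither. Among the canonical RP genes, 12 of 77 had a region (15.6%), 8 of 46 of the large subunit (17.4%, interval 9.09% to 30.7%) and 4 of 31 of the small subunit (12.9%, interval 5.13% to 28.9%), so that the subunits could not be distinguished at these numbers. Of the paralogs only *RPS27L* had a region. The 38 large-subunit genes without a region included *RPLP0*, *RPLP1*, *RPLP2*, *RPL5*, *RPL7A*, *RPL8*, *RPL9*, *RPL10*, *RPL10A*, *RPL11*, *RPL12*, *RPL13A*, *RPL14*, *RPL15*, *RPL17*, *RPL18*, *RPL19*, *RPL21*, *RPL22*, *RPL23*, *RPL23A*, *RPL24*, *RPL26*, *RPL27*, *RPL27A*, *RPL28*, *RPL29*, *RPL31*, *RPL32*, *RPL34*, *RPL35A*, *RPL36*, *RPL36A*, *RPL37A*, *RPL38*, *RPL39* and *RPL41*. The 27 small-subunit genes without one included *RPS2*, *RPS3*, *RPS3A*, *RPS4X*, *RPS6*, *RPS7*, *RPS9*, *RPS10*, *RPS12*, *RPS13*, *RPS14*, *RPS15*, *RPS15A*, *RPS16*, *RPS18*, *RPS19*, *RPS20*, *RPS21*, *RPS23*, *RPS25*, *RPS26*, *RPS27*, *RPS27A* and *RPS28*. The 9 paralogs without one were *RPL3L*, *RPS4Y1*, *RPS4Y2*, *RPL7L1*, *RPL10L*, *RPL22L1*, *RPL26L1*, *RPL36AL* and *RPL39L*, and the 3 readthrough records were *RPS10-NUDT3*, *RPL17-C18orf32* and *RPL36A-HNRNPH2*.

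RP genes had more annotated TSSs than other genes, with a median of 8 against 5, which gives a region more places to be near. At a like number of TSSs the share of RP genes with a region was lower than that of coding genes in the classes with most RP genes. It was 5 of 29 (17.2%) against 24.7% for 4 to 7 TSSs and 7 of 46 (15.2%) against 31.9% for 8 to 15. None of the 12 RP genes with fewer TSSs had a region. Among coding genes the share was 10.9% for 1 TSS and 19% for 2 to 3. Of the 3 RP genes with 16 or more TSSs, 1 had a region (33.3%), against 37.8% of coding genes. These classes held too few RP genes for a comparison. When only the representative TSS was used, 10 RP genes had a region within 1 kb (11.1%, interval 6.15% to 19.3%), against 21.2% of coding genes.

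CpG-rich promoters, with a CpG ratio of at least 0.6 and at least 50% GC in the window from 250 bp upstream to 50 bp downstream of the TSS, were found at 4377 of the 4958 coding genes with a region. Of the coding genes with such a promoter 33.4% had a region. RP genes had CpG-rich promoters more often than coding genes did, 77 of 90 (85.6%) against 65.0%, and 11 of these 77 had a region (14.3%, interval 8.17% to 23.8%). Promoters of RP genes had a median GC of 60%, against 63.3% for all coding genes and 71.7% for coding genes with a region. The median was 60% both for RP genes with a region and for those without one. A TOP-like start, a C at the representative TSS that opens a run of at least 5 pyrimidines, was found in 60 of 90 RP genes (66.7%) and 4.55% of coding genes. Of the RP genes with it, 9 had a region (15.0%, interval 8.10% to 26.1%), and of the 30 without it, 4 had one (13.3%, interval 5.31% to 29.7%). Of the 858 other coding genes with a TOP-like start, 27% had a region (interval 24.2% to 30.1%).

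**Figure D1:**
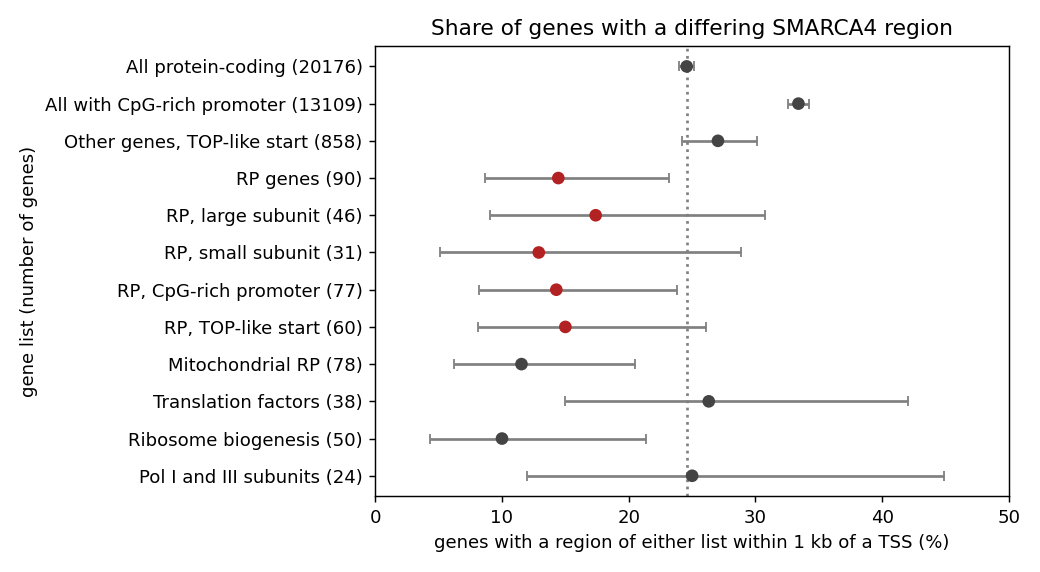
Percent of genes with a region, in either direction, at most 1 kb from a TSS, for all protein-coding genes, RP genes (red) and related lists. Points are shares, bars are 95% Wilson intervals, numbers in parentheses are genes, and the dotted line marks all coding genes. The 5 red points lie between 12.9% and 17.4%, left of the line at 24.6%.

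The first region group comprised the regions that lay nearer the representative TSS of the RP gene than that of any other coding gene. There were 8 of these, and the gene most unlike the others was *RPL3*, whose protein lies close to the peptidyl transferase center of the large subunit. Its region (chr22:39715149-39715835) ran from -207 to +479 bp around the TSS, over exon 1 and into intron 1. It held 7 tags, as aligned reads are called, in the parental library and 30 in the EIR library, or 22.0 after the larger EIR library was scaled to the parental total. The EIR over parental fold was 3.14 (95% Clopper-Pearson interval 1.35 to 8.47), with a HOMER *P* value of 1.45e-05. This was the only RP gene at which the EIR library was higher. The region covered the TSS of *RPL3*, and the start of *SNORD43*, one of the 3 snoRNAs that *RPL3* hosts, lay 31 bp outside it.

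*RPS27L*, a paralog of *RPS27* known as a p53 target, had the highest tag number of this group. Its region (chr15:63449544-63450328) held 48 parental and 30 EIR tags (22.0 scaled), a fold of 2.18 (1.36 to 3.57), and ran from -652 to +132 bp around the TSS. *RPL3* and *RPS27L* were among the 3 RP genes whose representative TSS was covered. Neither has a TOP-like start: the run at *RPL3* is 4 pyrimidines long, and *RPS27L* does not begin with a C in a run.

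At 3 genes of the large subunit the region stopped short of the promoter. For *RPL13* it held 27 parental and 16 EIR tags (11.7 scaled) at chr16:89626050-89626550, a fold of 2.30 (1.20 to 4.57), and ended 540 bp upstream of the TSS. For *RPL37* it held 28 parental and 16 EIR tags (11.7 scaled) at chr5:40835872-40836372, a fold of 2.39 (1.25 to 4.72), and ended 548 bp upstream. *RPL30*, which has a region with 22 parental and 11 EIR tags (8.1 scaled) and a fold of 2.73 (1.27 to 6.23), was alike, with the region 642 bp upstream of the representative TSS and over an alternative one. All 3 genes have a TOP-like start, which lay outside these regions. The 3 regions were each 500 bp wide, the smallest width among those of RP genes.

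At 2 genes the region lay in the first intron. *RPSA*, which encodes a small-subunit protein also known as a laminin receptor, had 34 parental and 22 EIR tags (16.1 scaled) at chr3:39448334-39448834, a fold of 2.11 (1.20 to 3.78), beginning 123 bp downstream of the representative TSS and covering an alternative TSS. *RPS24*, mutated in Diamond-Blackfan anemia, had 29 parental and 17 EIR tags (12.5 scaled) at chr10:79794576-79795076, a fold of 2.33 (1.24 to 4.51), beginning 955 bp downstream. The regions of both genes lay downstream of the pyrimidine run at the start. The regions had been selected by the authors for a difference, so their folds describe the chosen regions.

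The second group comprised 5 regions that lay nearer the representative TSS of a neighbouring coding gene. How often this holds for the regions of coding genes was not counted. *RPL35* and *RPL4*, whose proteins line the exit tunnel of the large subunit, and *RPL7* each have a coding gene that starts nearby on the opposite strand. The *RPL35* region (chr9:127624730-127625538; 37 parental and 18 EIR tags, 13.2 scaled) had a fold of 2.80 (1.56 to 5.23) and lay 494 bp upstream of *RPL35* and 321 bp from *ARPC5L*. The *RPL4* region (chr15:66797478-66798262; 36 parental and 16 EIR tags, 11.7 scaled) had the largest parental over EIR fold of the RP genes, 3.07 (1.66 to 5.92), and covered the TSS of *ZWILCH*, 285 bp upstream of that of *RPL4*. Both regions lay nearer the partner gene, and their tags cannot be assigned to either.

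*RPL7* had the most tags of any RP gene, 97 parental and 78 EIR tags (57.2 scaled). Its fold was the smallest among the parental-higher regions of RP genes, 1.70 (1.25 to 2.32). Its region (chr8:74207064-74207852) covered a TSS of *RDH10* and lay 1196 bp upstream of the representative TSS of *RPL7*, within 1 kb only of an alternative TSS. *RPL6* and *RPS29* were reached through distant alternative TSSs alone. The region at *RPL6* (chr12:112856472-112857394; 85 parental and 53 EIR tags, 38.9 scaled; fold 2.19, 1.53 to 3.14) covered the TSS of *PTPN11* and lay 9063 bp from the representative TSS of *RPL6*. The region at *RPS29* (chr14:50066044-50066672; 30 parental and 15 EIR tags, 11.0 scaled; fold 2.73, 1.42 to 5.46) lay 12946 bp from that of *RPS29* and 386 bp from that of *LRR1*. In these 5 regions there were 285 parental and 180 EIR tags (131.9 scaled), a fold of 2.16 (1.79 to 2.62). All 3 RP-gene regions with a HOMER *P* value of at most 1e-06, those of *RPL6* (1.08e-10), *RPL4* (9.81e-09) and *RPL35* (5.86e-08), were in this second group.

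**Figure D2:**
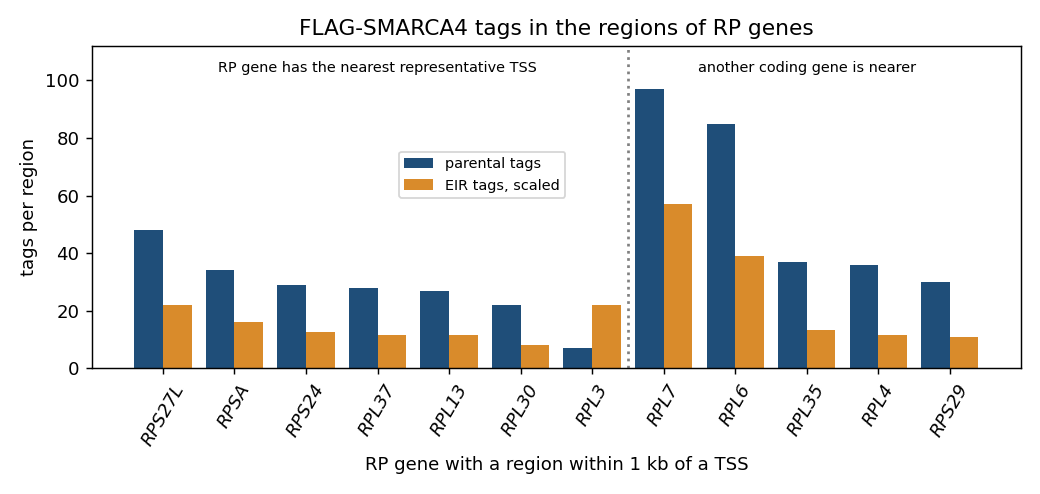
Tags in 12 of the 13 regions, in the parental library (blue) and in the EIR library scaled to the parental total (orange), for regions nearest the RP gene (left of the dotted line) and regions nearer another coding gene (right). The parental bar is the higher one at every gene drawn but *RPL3*, and the tallest bars, *RPL7* with 97 and *RPL6* with 85, belong to regions nearer another gene.

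By position, most of the few regions within 1 kb of the representative TSS of an RP gene did not cover it. Of the 10 RP genes with such a region the TSS was covered in 3 (30%), while 5 had the region upstream of it and 2 downstream. Among the upstream ones, the regions of *RPL35* and *RPL4* lay nearer the TSS of a neighbouring coding gene. Among the 4276 coding genes with a region within 1 kb of the representative TSS, the TSS was covered in 61.5%, and the region lay upstream in 13.0% and downstream in 25.4%. As a share of all genes, 3.33% of RP genes (interval 1.14% to 9.35%) and 13.0% of coding genes (12.6% to 13.5%) had their representative TSS covered.

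**Figure D3:**
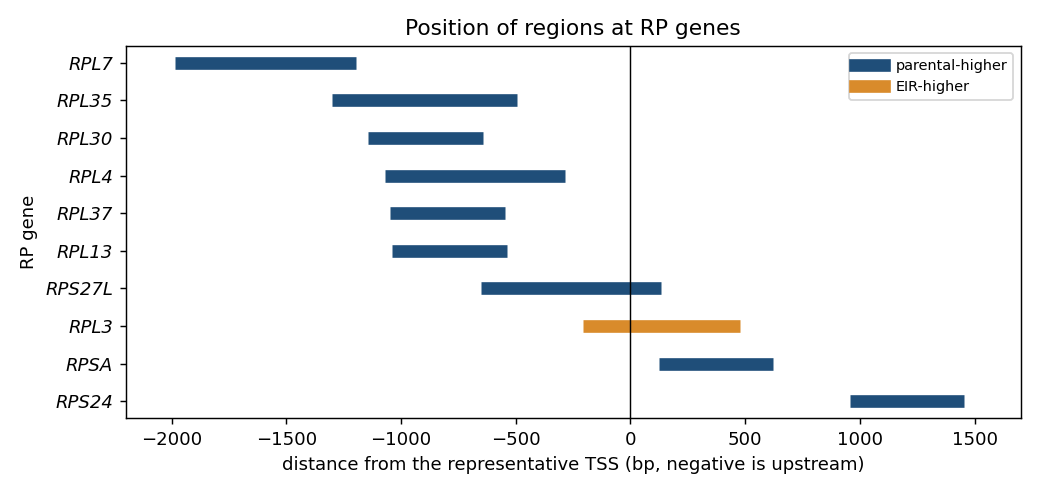
Extent of the regions along the gene, in bp from the representative TSS (vertical line, upstream to the left), for 10 RP genes whose region lay within 2.5 kb of it. Blue regions were parental-higher and the orange one, at *RPL3*, EIR-higher. Of those drawn, the line crosses *RPS27L* and *RPL3*, and 6 regions lie wholly upstream.

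The parental-higher regions of RP genes held fewer tags than those of other genes at the median. They had a median of 32 parental tags, against 50 (quartiles 32 and 79.5) for the nearest parental-higher regions of 4643 coding genes, and their median fold was 2.36 (range 1.70 to 3.07) against 2.52 (quartiles 2.14 and 3.07). No region of the parental-higher list had a HOMER *P* value above 9.99e-05, and the median *P* value was 1.45e-05 for the 13 regions of RP genes and 9.26e-08 for the nearest regions of coding genes. A region with a *P* value of at most 1e-06 was present at 3 of the 13 RP genes (23.1%, interval 8.18% to 50.3%) and at 61.2% of the 4958 coding genes with a region. Over all 13 regions the sums were 500 parental and 331 EIR tags (243 scaled), a fold of 2.06 (1.79 to 2.38), and over the 5051 distinct regions of coding genes the fold was 2.30 (2.28 to 2.31). Per kilobase of region, parental tags were 59.5 at RP genes and 66.9 at coding genes, and scaled EIR tags were 28.9 and 29.1.

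**Figure D4:**
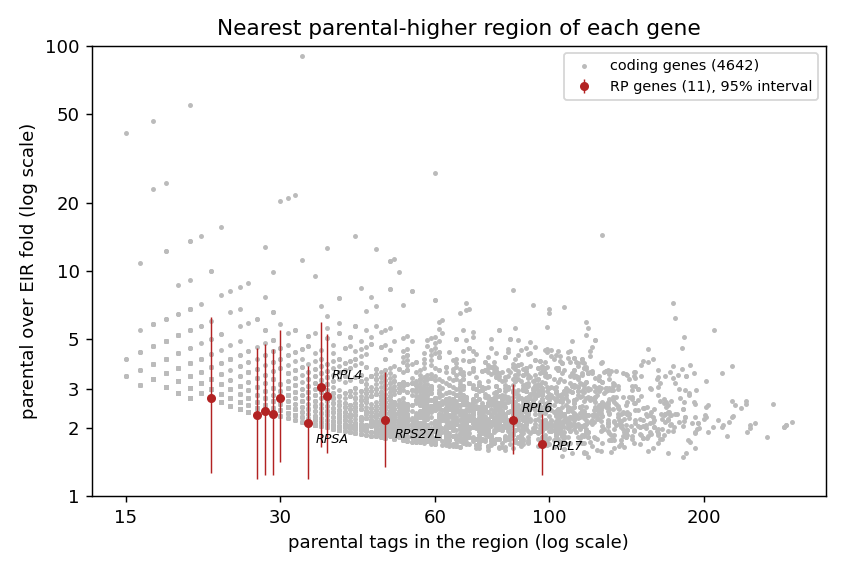
Parental over EIR fold against parental tags (both log scales) for the nearest parental-higher region of each coding gene (gray) and of 11 RP genes (red, with 95% Clopper-Pearson intervals of the fold). Folds against 0 EIR tags were set by the authors with 0.5 of a tag. The red points lie between 1.70 and 3.07, and the quartiles of the fold for coding genes are 2.14 and 3.07. Of the 11 red points, 9 have fewer than 50 tags.

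Within 5 kb of a TSS 16 RP genes had a region (17.8%) against 29.2% of coding genes, and within 10 kb the shares were 22.2% and 33.0%. At 50 kb they were 50% and 52.6%, and at 100 kb 66.7% and 65.7%, so that the shares lay apart up to 10 kb and close together from 50 kb. The genes that entered between 1 and 5 kb were *RPL28*, 1762 bp from a region with 48 parental tags and a fold of 3.45 (1.99 to 6.21), *RPL23A*, 2409 bp from one with 66 tags and a fold of 1.73 (1.19 to 2.54), and *RPL23*, 3076 bp from one with 31 tags and a fold of 3.25 (1.65 to 6.77). The first of these regions was nearest the TSS of *TMEM238* and the second that of *RAB34*, while the third was nearest *RPL23* itself.

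**Figure D5:**
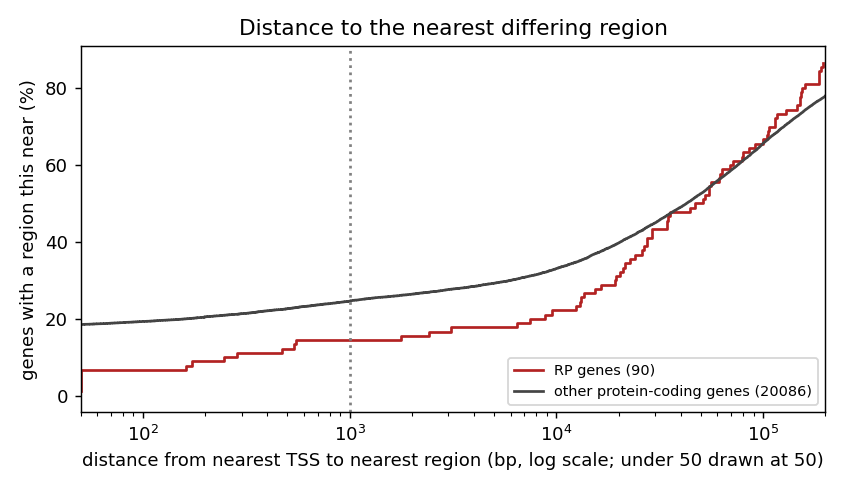
Cumulative percent of RP genes (red) and other protein-coding genes (gray) against the distance from a gene's nearest TSS to the nearest region (bp, log scale, with distances under 50 bp drawn at 50). The dotted line marks 1 kb, where RP genes are at 14.4%, and the curves meet near 50 kb.

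By role, the numbers were small and are to be read against the share of 24.6% among coding genes. No gene of the stalk that recruits elongation factors (*RPLP0*, *RPLP1*, *RPLP2* and *RPL12*) had a region, and the nearest ones lay between 7463 and 52157 bp away. The proteins of the 5S particle and others that bind MDM2 (*RPL5*, *RPL11*, *RPL23* and *RPL26*) also had none within 1 kb. Of 5 genes for proteins of the exit tunnel, *RPL4* and *RPL35* had a region and *RPL17*, *RPL23A* and *RPL39* did not. Of 19 genes mutated in Diamond-Blackfan anemia, 3 had one (15.8%), namely *RPS24*, *RPS29* and *RPL35*. *RPS19*, the gene most often mutated in that disease, lay 117164 bp from the nearest region. Hosts of snoRNAs had a region in 7 of 29 (24.1%, interval 12.2% to 42.1%), and RP genes without snoRNAs in 6 of 58 (10.3%, interval 4.83% to 20.8%), intervals that overlap.

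The uniqueness of the promoter sequences was counted from exact matches in the reference genome. Whether the reads were placed at these promoters was not tested. At least 90% of the 75-base sequences within 1 kb of the representative TSS were unique in the genome at 89 of the 90 RP genes. The same held at 18945 of the 20176 coding genes. Of the 77 RP genes without a region 76 reached this limit, as did all 13 with a region.

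Sequence motifs in the promoter window from 250 bp upstream to 50 bp downstream of the representative TSS were counted on both strands. CCGGAAG, the core bound by ETS factors, was present at 34.4% of RP genes and 14.0% of coding genes, and AAGATGG, bound by YY1, at 16.7% and 6.44%. Among the 13 RP genes with a region they were present at 5 and 3, and among coding genes with a region at 11.9% and 5.39%. GGGCGG, bound by Sp1, was present at 58.9% of RP genes and 60.9% of coding genes. Of those with a region, it was present at 9 of the 13 RP genes and 82.4% of coding genes. TGANTCA, bound by AP-1, was present at 2.22% of RP genes and 5.42% of coding genes. It was at none of the 13, and at 3.55% of coding genes with a region. A match shows only that these letters are in the window.

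Genes that work with the cytosolic ribosome were examined in the same way. Of 78 genes for mitochondrial RPs, which build the separate ribosome of that organelle, 9 had a region (11.5%, interval 6.19% to 20.5%), all parental-higher, with a median fold of 2.86. The one with the most parental tags was at *MRPS6*, with 127 parental and 39.6 scaled EIR tags and a fold of 3.21. Of 38 translation factors 10 had a region (26.3%, interval 15.0% to 42%), all parental-higher, including *EIF4G1*, the scaffold of the cap-binding complex, with 32 and 7.3 tags and a fold of 4.37. Of 50 ribosome biogenesis genes 5 had one (10.0%, interval 4.35% to 21.4%), among them *UBTF*, a factor of RNA polymerase I, with 122 and 50.6 tags and a fold of 2.41. Of 24 subunits of RNA polymerases I and III 6 had one (25%, interval 12% to 44.9%), parental-higher in all 6, and 1 of these genes had an EIR-higher region as well. *FAU* and *RACK1*, whose symbols hide an RP, had none. The share was thus below that of coding genes for the mitochondrial RP and biogenesis lists and close to it for translation factors and polymerase subunits.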

How the data were processed

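FLAG-SMARCA4 ChIP-seq of parental TOV21G cells and of EIR clone 3 (1 library each) was analysed. The members and gene lists were chosen with earlier results of these data known. The authors aligned 75 bp reads with Bowtie 0.12.9 to hg19 (GRCh37 coordinates). HOMER, in histone style, was run on either library against the other, and regions past an FDR of 5% were kept. How reads with several alignments were treated is not given in the sources used here. In the deposited lists the tags of the parental library are a count per region, and the tags of the EIR library are a signal that the authors scaled to the parental total. The deposited fold is the ratio of these tags, the deposited p-value is HOMER's Poisson p-value, and a control without tags was given 0.5 of a tag.

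From the steps of the scaled tags, 1 EIR tag was worth 0.733 parental tags, and 98.3% of distinct values from 5 upwards were whole multiples within 0.05. The totals come to about 25600000 parental and 35000000 EIR tags. Scaling to totals cannot tell a difference in occupancy across the genome from one in library composition. Regions were joined to every TSS of GENCODE release 44 lifted to GRCh37, by the nearest edge. Intervals of folds are Clopper-Pearson and those of shares Wilson intervals, and whole tags were tested by the exact binomial test (two-sided). Intervals of shares treat genes as independent draws. No gene set test was made. Some RP genes are counted in the totals and not reported here by name. RP genes with a region in either list, and those of the role lists, were named by rule: the EIR-higher ones and the 8 with the most parental tags, the 8 with the largest and the 8 with the smallest folds. Other windows, TSS choices, thresholds and scalings were tried as alternatives. The statistics and the join were tested on simulated data. The work used scipy 1.17.1, numba 0.67.0 and numpy 2.4.6 under Python 3.11.15.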

Additional observations from a re-analysis of the deposited data

How the results depend on the processing

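The share of RP genes with a region was below that of coding genes under each alternative that gives both shares. It stayed within its interval with windows of 500 bp or 5 kb (12.2% and 17.8%, coding genes 22.6% and 29.2%), distance from the region's centre (coding 23.5%), the 5′ end of the gene record (coding 19.5%), a fold of at least 2 (coding 21.6%) and, chosen after seeing the data, the representative TSS (coding 21.2%). With a HOMER *P* value of at most 1e-06, 3 parental-higher and 0 EIR-higher RP genes were left (3.33%, coding 15.0%). With the EIR library scaled 1.5 times higher, 1 parental-higher RP gene, *RPL4*, was left (2.22% with *RPL3*, coding 10.0%). Both shares keep all EIR-higher regions, which were not tested again at this scaling. The median fold was then 1.55, and 4 of the 13 folds kept an exact binomial *P* value under 0.05. One of them was that of *RPL3*, which is EIR-higher, so that this scaling can only enlarge its difference. The parental-higher ones were those of *RPL4*, *RPL6* and *RPL35*. Without the regions nearer another coding gene, an alternative added after seeing the data, 7 parental-higher RP genes were left. This filter was applied to RP genes only, so how many coding genes it would leave is not known. The number of RP genes with a region rests on regions near the calling threshold. No paired analysis was possible because each condition has 1 library. Regions that did not differ were not analysed here, so a wider window can reach further listed regions, but no alternative can add a region that was not called.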

Other observations

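Of 1595 RP pseudogenes 18 had a region within 1 kb of a TSS (1.13%, Wilson interval 0.715% to 1.78%), against 0.913% of 14022 pseudogenes of the same kinds. *RPL10* had no region within 1 kb of a TSS, but one overlapped the 3′ end of the gene and ran beyond it (chrX:153637012-153638680). That region had 91 parental and 68 EIR tags (49.8 scaled) and a fold of 1.83 (1.32 to 2.54), and covered the representative TSS of *DNASE1L1*. *RPS24* had a second region, 4835 bp from its nearest TSS (chr10:79788183-79788683; 24 parental and 12 EIR tags, 8.8 scaled; fold 2.73, 1.31 to 5.99), 590 bp from the TSS of *POLR3A*.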
